A study of Mus musculus with 8 samples.

Results

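The 33 genes described here build, modify, break down and signal through sphingolipids. They were taken by symbol from a fixed list, and all 33 were found among the 34432 genes of the deposited table. RNA came from mouse bone marrow-derived macrophages, which are bone marrow cells grown into macrophages in culture, collected untreated on day 7 of differentiation. The control group of 4 libraries was VavCre. The other 4 libraries were double knockouts of genotype Cdk8 flox/flox Vav-iCre Cdk19null, called DKO below. Cdk8 and Cdk19 are the paired kinases of the Mediator complex, which links transcription factors to RNA polymerase. Both groups carry a Cre recombinase driven from Vav, a gene of the blood-forming lineage, so the deletion of Cdk8 is not limited to macrophages. The kind of Cdk19 null allele, the age and sex of the mice and whether replicates came from separate mice or cultures are not given in the labels. The p-values therefore reflect only how far these 8 libraries spread, and that spread may be technical.

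Sphingolipids are lipids built on a sphingoid base. Serine palmitoyltransferase makes the base in the endoplasmic reticulum, ceramide synthases add a fatty acid to it, and the resulting ceramide is the hub from which sphingomyelin, ceramide 1-phosphate and glycosphingolipids are made. Breakdown runs back through ceramide to sphingosine, which can be phosphorylated to sphingosine 1-phosphate (S1P), a lipid that signals through cell-surface receptors before a lyase destroys it. Macrophages take in the membranes of dying cells and digest their sphingolipids in lysosomes.

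The 8 libraries held 17856715 to 21353207 reads assigned to the genes of the deposited table, as recovered from its values. Values are the authors' normalized counts, that is reads per gene divided by a size factor per library. Cdk19 lay at 1299, 1295, 1530 and 1682 in the controls and at 396, 392, 361 and 342 in the DKO libraries, a log2 difference of -1.95 with limma adjusted p = 2.95e-08. Cdk8 lay at 408 to 466 in the controls and 294 to 429 in the DKO libraries, a log2 difference of -0.35 with limma adjusted p = 0.0374, and its groups overlapped. Leaving out single libraries took the Cdk8 p as high as 0.104. The Cdk8 value is a total over all exons, those beyond the floxed ones included, and so does not measure the deletion. All 12 macrophage markers checked were detected above the filter, 7 of them higher and 5 lower in the DKO libraries. Their summed values were 391795 to 425560 in the controls and 351710 to 375378 in the DKO libraries. For these and the following marker counts, 46.6% of all tested genes were called, 22.9% higher and 23.8% lower. Markers of cell division fell in 8 of 8 genes, with summed values of 15605 to 17043 in the controls and 1958 to 2232 in the DKO libraries. Of 10 neutrophil markers, 8 were tested and all 8 were lower (sums of 1971 to 3466 against 482 to 769). Of 8 monocyte markers, 4 were lower (sums of 2469 to 3050 against 606 to 727). Of the erythroid, megakaryocyte and mast cell markers only Pf4 was tested, and it was higher. Of the stroma and endothelium markers 4 were tested, 1 higher and 1 lower, and of the dendritic cell markers 1, which did not pass. T, B and NK cell markers were near 0, with sums of at most 5.55 in the controls and 20.01 in the DKO libraries, and Cd3e, Cd3g and Ncr1 were at 0 everywhere. The part of these other cells, and of dividing cells, in the sphingolipid results was not tested, and in bulk RNA fewer cells of a type and less RNA per cell cannot be told apart. By chi-square per gene of the reads, DKO libraries 1 and 2 (8.01) and 3 and 4 (9.08) were closer than the other DKO pairings (19.2 to 26.4), and control libraries 2 and 3 (9.29) were about as close. By the root mean square log2 difference, which weights low genes more, libraries 1 and 2 were also the closest DKO pair (0.499), but 3 and 4 were the farthest (0.577, against 0.548 to 0.572 across the pairs). The grouping of the DKO libraries into pairs therefore depends on the measure.

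In the DKO libraries the transcript of the surface protein gene Smpdl3b was at 5.44% of the control mean, and those of the sphingomyelin synthase Sgms1 and the ceramidase Acer3 were at 44.3% and 47.1%. All 4 ceramide synthases listed and the ganglioside synthase St3gal5 were lower. The S1P receptor S1pr1 was 2.70-fold higher, and the S1P kinase Sphk2, the S1P lyase Sgpl1 and the ceramide kinase Cerk were 1.46-, 1.36- and 1.44-fold higher. Of the 33 genes, 32 passed the filter of at least 10 normalized counts in at least 4 libraries. With limma on log2(normalized count + 1) and adjustment over all 11675 genes tested, 9 of the 32 rose in the DKO libraries, 12 fell and 11 did not pass the adjusted threshold of 0.05. The background was high: 46.6% of all tested genes passed, 22.9% upward and 23.8% downward, against 65.6% of the sphingolipid genes, 28.1% upward and 37.5% downward. The groups did not overlap for 20 of the 32 genes (62.5%), against 42.9% of all tested genes. A change of at least 1.5-fold together with the threshold was met by 10 genes, 2 upward and 8 downward, which is 31.3% against 21.7% of all tested genes. The median log2 difference was -0.07 over the sphingolipid genes and 0.01 over all tested genes. With DKO libraries 1 and 2, and 3 and 4, averaged into 1 value each, 16 of the 21 calls held, 6 upward and 10 downward.

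**Figure D1:**
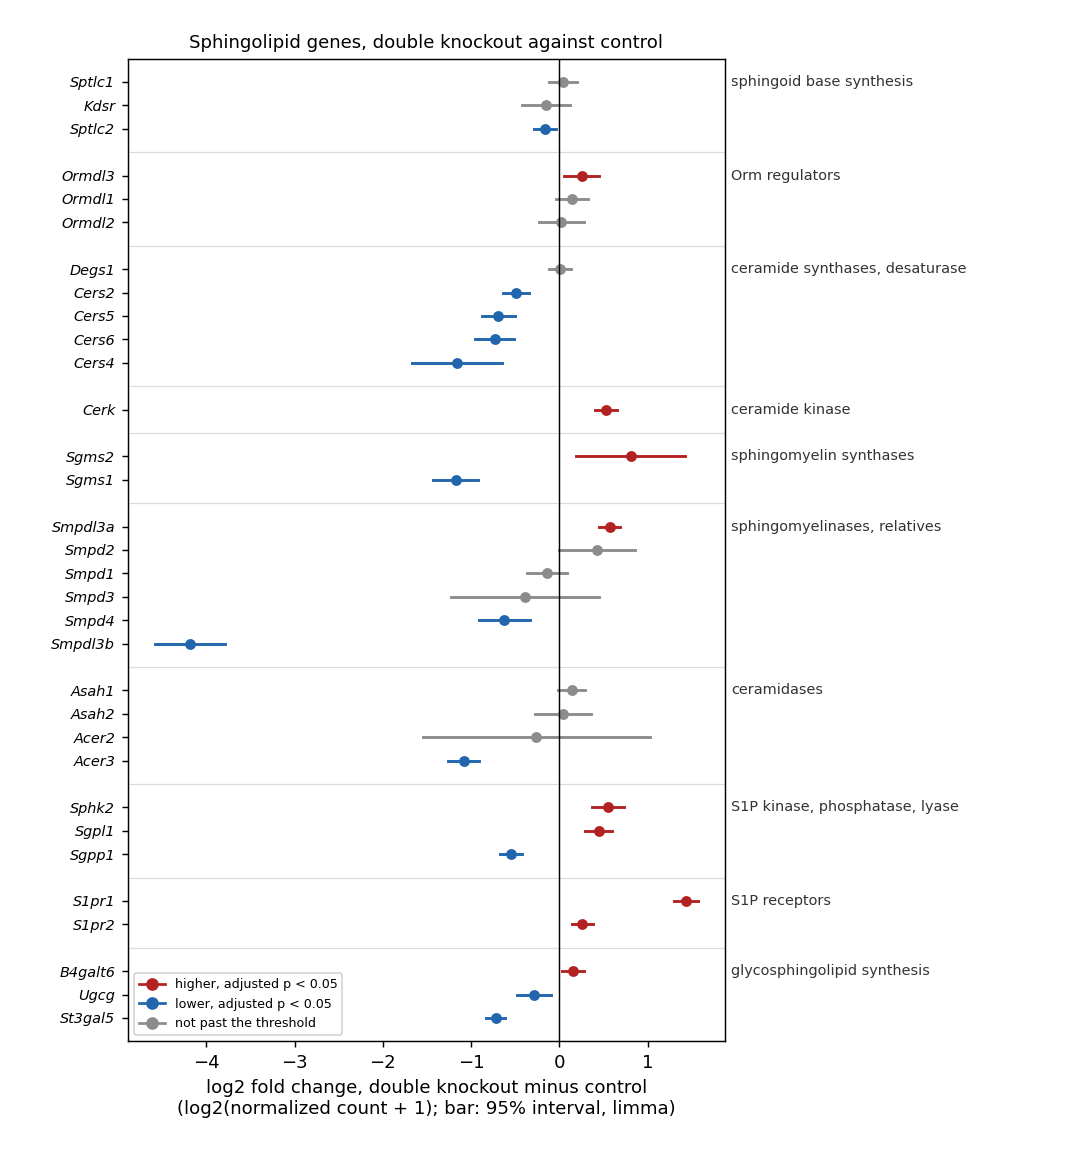
Log2 fold change of each tested sphingolipid gene, DKO minus control, on the log2(normalized count + 1) scale, grouped by role. Points are limma estimates over 4 libraries per group, bars are 95% intervals, and colour gives the call; Smpdl3b lies farthest left at -4.18 and S1pr1 farthest right at 1.43.

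Levels between genes were compared per kilobase of annotated exon. In the controls the leading transcripts were Smpdl3a at 3350.4 ± 72.8 normalized counts per kb and St3gal5 at 3300.4 ± 49.6, whose ranges of mean and SD overlap. Per kb of the longest transcript their order turned, at 3528 for Smpdl3a and 3543 for St3gal5. Asah1 followed at 2141 ± 58.4. B4galt6 and Sgpl1 came next at 1246 and 1236 and were not separated beyond their spread, although per kb of the longest transcript they stood at 1246 and 1740.4. The lowest were Smpd3 at 3.5, Acer2 at 1.34 and Sphk1 at 0.531 per kb. In the DKO libraries S1pr1 stood at rank 5 of the 33 genes, against rank 9 in the controls, and Smpdl3b at rank 29 against rank 16. By the longest transcript the control ranks were 10 and 17 and the DKO ranks the same. In these libraries Smpdl3a stood first by either length, at 4981 ± 201 per kb, while St3gal5 stood at 2003 ± 21.2.

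Synthesis starts with serine palmitoyltransferase, whose large subunits are Sptlc1 and Sptlc2. Of the 3 genes of sphingoid base synthesis, 1 fell and 2 did not pass. Sptlc2 values were 2861, 2954, 2724 and 2629.7 in the controls and 2560.1, 2511, 2504 and 2403 in the DKO libraries. The groups did not overlap, but they lay close together. The log2 difference of Sptlc2 was -0.16 ± 0.06 (SE), with limma adjusted p = 0.0412, and the call was lost without any single library other than control 4, with p as high as 0.114. Sptlc1 stood at 1195 ± 83.1 (SD, n = 4) and 1229.6 ± 56.4, with a 95% interval of the log2 difference of -0.12 to 0.20 and limma adjusted p = 0.660. Kdsr, the reductase of the next step, stood at 389 ± 29.0 and 352 ± 55.7, with an interval of -0.43 to 0.12 and limma adjusted p = 0.336. The Ormdl proteins bind and restrain serine palmitoyltransferase, and 1 of the 3 genes rose. Ormdl3 values were 498, 486, 436 and 484 in the controls and 573, 627, 523 and 547 in the DKO libraries. Every DKO value was above every control value, by a log2 difference of 0.25 ± 0.09 (SE) and limma adjusted p = 0.0409, which was 0.112 with the DKO pairs averaged and 0.0528 to 0.118 without DKO library 1, 2 or 4 or control library 2, 3 or 4. Ormdl1 stood at 797 ± 43.7 and 881 ± 66.0, with an interval of -0.04 to 0.32. It shares 8.72% of its exon bases with Gm28778 on the same strand. Ormdl2 stood at 740.2 ± 106 and 749 ± 74.6, with an interval of -0.23 to 0.28. Of the annotated exon bases of Ormdl2, 66.7% are shared with Dnajc14 on the opposite strand, so its reads are uncertain.

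All 4 tested ceramide synthases, which attach the fatty acid and differ in its preferred length, fell in the DKO libraries. Cers2, the synthase of very-long-chain ceramides, had 3839.7, 4054, 4211 and 4339 normalized counts in the controls and 3059, 3121, 2818 and 2722 in the DKO libraries. Its mean went from 4111 ± 215 to 2929.9 ± 191 (SD, n = 4 each), a log2 difference of -0.49 ± 0.07 (SE) with limma adjusted p = 8.86e-05. For Cers2, as for the other 3 synthases, the groups did not overlap. Cers5 and Cers6 both favour palmitoyl-CoA. Cers5 values were 1329.7, 1377, 1235 and 1407 against 867, 911, 731 and 808, a log2 difference of -0.69 ± 0.08 (SE) with limma adjusted p = 3.97e-05. Cers6 values were 1402, 1236, 1500.3 and 1479 against 974, 892, 729 and 798, a log2 difference of -0.73 ± 0.10 (SE) with limma adjusted p = 0.000104. Both genes were at about the same distance below the controls. Cers4 (chr8:4493026-4531680, plus strand, build mm10), a low transcript, had 82.6, 97.6, 118 and 161 in the controls and 51.5, 40.2, 47.0 and 60.4 in the DKO libraries. The control values of Cers4 spread widely, and the highest DKO value, 60.4, was still below the lowest control, 82.6. Its log2 difference was -1.16 ± 0.24 (SE) with limma adjusted p = 0.00177. Cers4 shares 7.22% of its exon bases with Vmn2r-ps89 and 1.7% with Gm36956, both on the opposite strand, and their part in its value was not tested. Summed per kb of exon, the synthase family went from 1664 ± 72.5 to 1132 ± 81.3. Within that sum Cers2 held 67.2% ± 1.04 in the controls and 70.4% ± 1.33 in the DKO libraries. Cers5 held 22.7% ± 1.35 and 20.7% ± 0.88, Cers6 9.51% ± 0.73 and 8.42% ± 0.59, and Cers4 0.56% and 0.36%. The Cers2 share was higher in every DKO library than in any control, by a small step, while the total was lower. Degs1, the desaturase that turns dihydroceramide into ceramide, stood at 2564 ± 70.7 and 2582 ± 93.2, with an interval of the log2 difference of -0.11 to 0.13 and limma adjusted p = 0.902.

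Ceramide is used by a kinase and by sphingomyelin synthases. Cerk (chr15:86139128-86186141, minus strand), which makes ceramide 1-phosphate, had 3808, 3858, 3661 and 4131 in the controls and 5729.9, 5369, 5512 and 5617 in the DKO libraries. The groups were well apart, at a 1.44-fold higher DKO mean, with a log2 difference of 0.52 ± 0.06 (SE) and limma adjusted p = 1.52e-05. The sphingomyelin synthases moved in opposite directions. Sgms1 (chr19:32122727-32389714, minus strand), the Golgi enzyme, had 487, 576, 564 and 591 in the controls and 251, 287, 219 and 225 in the DKO libraries. The DKO mean was 44.3% of the control mean, with no overlap, a log2 difference of -1.18 ± 0.12 (SE) and limma adjusted p = 6.67e-06. Sgms2, which works mainly at the plasma membrane, had 45.2, 52.2, 77.7 and 71.4 in the controls and 81.6, 94.5, 185 and 88.7 in the DKO libraries. DKO library 3 stood far above the other DKO libraries, while the lowest DKO value, 81.6, was only just above the highest control value, 77.7. The log2 difference of Sgms2 was 0.81 ± 0.28 (SE) with limma adjusted p = 0.0340, and without DKO library 3 it was 0.54 with adjusted p = 0.0910. The Sgms2 call was also lost without control library 1 (0.0838) or control library 2 (0.0791). Per kb of exon, Sgms1 made up 84.3% ± 2.72 of the pair in the controls and 57.5% ± 11.1 in the DKO libraries. With the length of the longest transcript in place of all exons, the Sgms2 share was 7.12% and 23.9%.

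Among the 6 sphingomyelinases and their relatives, 1 rose, 2 fell and 3 did not pass. Smpdl3b (chr4:132732966-132757252, minus strand) encodes a lipid-anchored surface protein related to acid sphingomyelinase that is known to dampen Toll-like receptor signalling in macrophages. It had 603, 704, 629 and 549 normalized counts in the controls and 43.7, 29.1, 37.0 and 25.3 in the DKO libraries. The highest DKO value, 43.7, stood against a lowest control value of 549, and the DKO mean was 5.44% of the control mean. The log2 difference was -4.18 ± 0.18 (SE) with limma adjusted p = 6.62e-09, and the DKO libraries still held 26 to 45 reads of the gene each. Its relative Smpdl3a (chr10:57794335-57811830, plus strand), a secreted and lysosomal nucleotide phosphodiesterase, moved the other way. Smpdl3a values were 6788, 6809, 7109 and 6968 in the controls and 10364, 10584, 10515 and 9678 in the DKO libraries. That is a 1.49-fold higher DKO mean with no overlap, a log2 difference of 0.57 ± 0.05 (SE) and limma adjusted p = 4.42e-06. Smpdl3b made up 8.46% ± 0.87 of the pair per kb in the controls and 0.34% ± 0.08 in the DKO libraries.

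The promoter of Smpdl3b is shown because this gene had the largest difference among the 32 tested. The sequence is RefSeq's, build GRCm38.p6, minus strand, chr4:132757122-132757421, from 250 bases before the annotated start to 50 after it. Capitals mark a CCAAT box (CCAAT) and an E-box (CACGTG), found by a search of both strands. The CCAAT box lies before the annotated start and the E-box after it.
Smpdl3b: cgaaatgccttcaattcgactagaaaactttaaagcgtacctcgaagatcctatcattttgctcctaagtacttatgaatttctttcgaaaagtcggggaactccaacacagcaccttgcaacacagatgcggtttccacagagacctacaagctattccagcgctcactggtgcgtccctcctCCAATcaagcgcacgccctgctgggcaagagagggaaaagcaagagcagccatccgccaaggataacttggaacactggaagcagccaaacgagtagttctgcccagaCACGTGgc
An E-box was found in 7 of the 28 sphingolipid genes with a promoter entry, against 8.09% of all 27025 genes with an entry. Of the 7, 1 was higher, 3 were lower and 3 were not called or not tested. Some genes have several entries, and a gene counted when any of them held the word. Over the 43 entries of the 28 genes the E-box was in 18.6%, against 7.15% of all 32851 entries. A CCAAT box was found in 15 of the 28, against 41.1% of all genes. Over entries the difference was small, at 39.5% of the 43 against 37.4% of all. The sphingolipid promoters had a higher GC content, with a median of 62.3% against 52.7% over all promoters, and the counts are not adjusted for it.

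The sphingomyelinases proper showed smaller differences. Smpd4, a neutral sphingomyelinase of the endoplasmic reticulum and nuclear envelope, had 623, 882, 744 and 851 in the controls and 432, 543, 453 and 581 in the DKO libraries. The groups were separate, with a log2 difference of -0.62 ± 0.13 (SE) and limma adjusted p = 0.00228. Smpd1, the acid sphingomyelinase of lysosomes, stood at 529.7 ± 48.1 and 481 ± 46.9, with an interval of -0.37 to 0.09 and limma adjusted p = 0.296. Smpd2, a neutral sphingomyelinase, had 215, 248, 161 and 143 in the controls and 284, 236, 197 and 308 in the DKO libraries. These groups overlapped, at a log2 difference of 0.43 ± 0.20 (SE), an interval from just below 0 to 0.86 and limma adjusted p = 0.0934, which was 0.0378 without control library 2 and 0.0478 without DKO library 3. With quantile normalization Smpd2 also passed, at a log2 difference of 0.55 and adjusted p = 0.0359. Smpd2 shares 20.3% of its exon bases with Mical1 on the opposite strand, so its reads are uncertain. Smpd3 was low throughout, between 10.1 and 23.2, with an interval of -1.22 to 0.45. Of the 4 sphingomyelinase genes per kb, Smpd1 held 54.6% in the controls and 55.5% in the DKO libraries, Smpd4 29.5% and 21.4%, and Smpd2 14.7% and 22.1%.

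Ceramidases cut ceramide into a fatty acid and sphingosine, and 1 of the 4 fell. Acer3 (chr7:98206389-98321208, minus strand), an alkaline ceramidase of the endoplasmic reticulum and Golgi, had 1784, 1862, 2061 and 2014 in the controls and 897, 1024, 873 and 844 in the DKO libraries. The lowest control exceeded the highest DKO value by more than the spread within either group, and the DKO mean was 47.1% of the control mean. The log2 difference of Acer3 was -1.09 ± 0.08 (SE) with limma adjusted p = 6.07e-07. Asah1, the acid ceramidase of lysosomes, had 7043, 7141, 7375 and 7468 in the controls and 8450.2, 8701, 7142 and 7742 in the DKO libraries. DKO library 3 lay among the controls and the other 3 above them, giving a log2 difference of 0.14 ± 0.07 (SE), an interval of -0.01 to 0.29 and limma adjusted p = 0.117. Without DKO library 3 the difference of Asah1 was 0.19 with adjusted p = 0.0355. The neutral ceramidase Asah2 stood at 477 ± 103 and 482 ± 35.9, with an interval of -0.28 to 0.36. Acer2, an alkaline ceramidase of the Golgi, held only 3 to 17 reads per library, with an interval of -1.55 to 1.02, so differences within that range were not detectable at this depth. Asah1 made up 92.7% of the ceramidase transcripts per kb in the controls and 95.8% in the DKO libraries, while Acer3 went from 5.45% ± 0.20 to 2.41% ± 0.16.

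**Figure D2:**
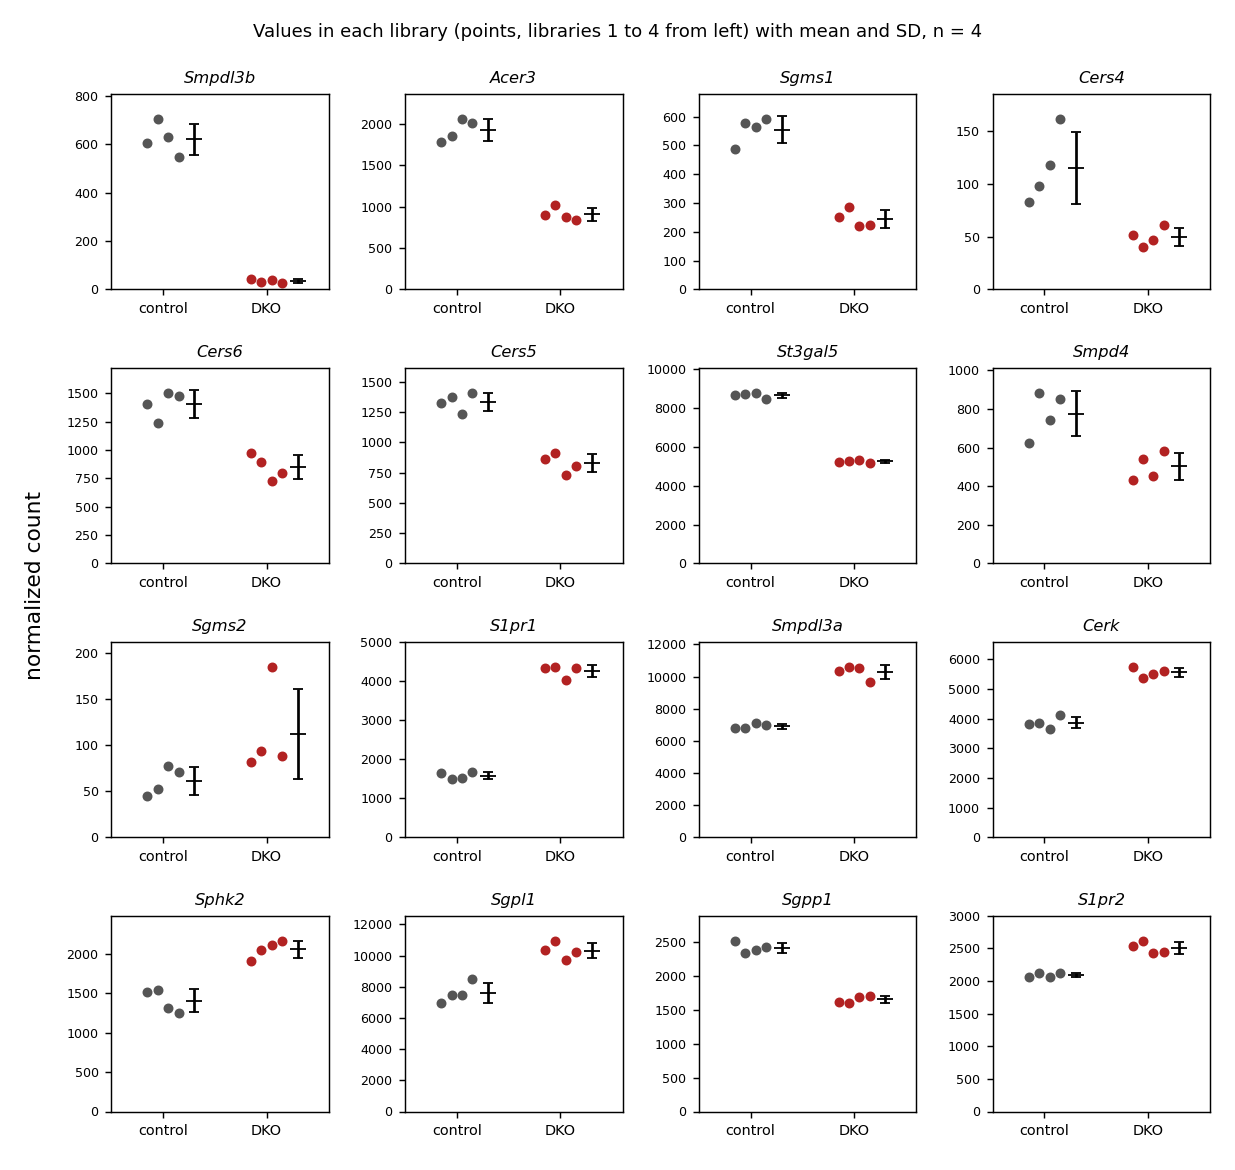
Normalized counts of 16 sphingolipid genes in each library, with control libraries in grey and DKO libraries in red. Points are libraries 1 to 4 from left to right and bars are the mean and SD (n = 4); each y axis starts at 0, and only in the Sgms2 panel does 1 library, DKO 3 at 185, stand far above its group.

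S1P is made by sphingosine kinases, returned to sphingosine by phosphatases and destroyed by the lyase Sgpl1. Of the 4 genes of these steps in the list, 2 rose, 1 fell and Sphk1 was too low to test. Sphk1 held 1 to 3 reads per library apart from DKO library 2, with 10, and Sphk2 made up 99.8% of the kinase transcripts per kb in both groups. Sphk2 (chr7:45709467-45718002, minus strand), the kinase found in the nucleus and mitochondria, had 1518, 1548, 1319 and 1255 in the controls and 1916, 2057, 2117 and 2163 in the DKO libraries. Its groups did not overlap, with a 1.46-fold higher DKO mean, a log2 difference of 0.55 ± 0.08 (SE) and limma adjusted p = 0.000179. Sphk2 shares 12.96% of its exon bases with Dbp and 8.97% with Rpl18, both on the opposite strand. Dbp had means of 96.0 ± 16.2 and 168 ± 22.4 and was called higher, and Rpl18 had means of 11808 ± 1851 and 13675 ± 1212 and did not pass (limma adjusted p = 0.115). Their part in the Sphk2 value was not tested. Sgpl1 (chr10:61098642-61147703, minus strand), which cleaves S1P irreversibly, had 6967, 7458, 7453 and 8482 in the controls and 10380.2, 10921, 9745 and 10230.3 in the DKO libraries. All DKO values were above all controls, with a 1.36-fold higher mean, a log2 difference of 0.45 ± 0.07 (SE) and limma adjusted p = 0.000254. Sgpp1, the S1P phosphatase of the endoplasmic reticulum, had 2512, 2334, 2386 and 2434 in the controls and 1614, 1606, 1693 and 1710.2 in the DKO libraries. It moved against the kinase and the lyase, with a log2 difference of -0.55 ± 0.06 (SE) and limma adjusted p = 1.27e-05.

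Both S1P receptors in the list rose. S1pr1 (chr3:115710433-115715072, minus strand), the inhibitory G protein-coupled receptor known for drawing lymphocytes out of lymphoid organs, had 1646, 1489, 1517 and 1674 in the controls and 4342, 4357, 4027 and 4333 in the DKO libraries. The lowest DKO value, 4027, stood against a highest control value of 1674. The mean was 2.70-fold higher, at a log2 difference of 1.43 ± 0.06 (SE) with limma adjusted p = 6.83e-09, the largest upward difference among the 32 tested genes. S1pr2 (chr9:20962361-20976781, minus strand), the receptor known for holding back cell migration, had 2061, 2118, 2059.6 and 2126 in the controls and 2545, 2610.3, 2425 and 2439 in the DKO libraries. This step was smaller, 1.20-fold, but the groups were tight and separate, with a log2 difference of 0.26 ± 0.06 (SE) and limma adjusted p = 0.00252. Per kb of exon S1pr1 made up 65.9% ± 1.36 of the 5 receptor genes in the controls and 81.5% ± 0.42 in the DKO libraries, and S1pr2 33.3% and 18.3%. Of the receptors outside the list, S1pr4 had means of 14.8 and 8.36 normalized counts and did not pass, S1pr3 averaged under 1, and S1pr5 was at 0 in every library.

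**Figure D3:**
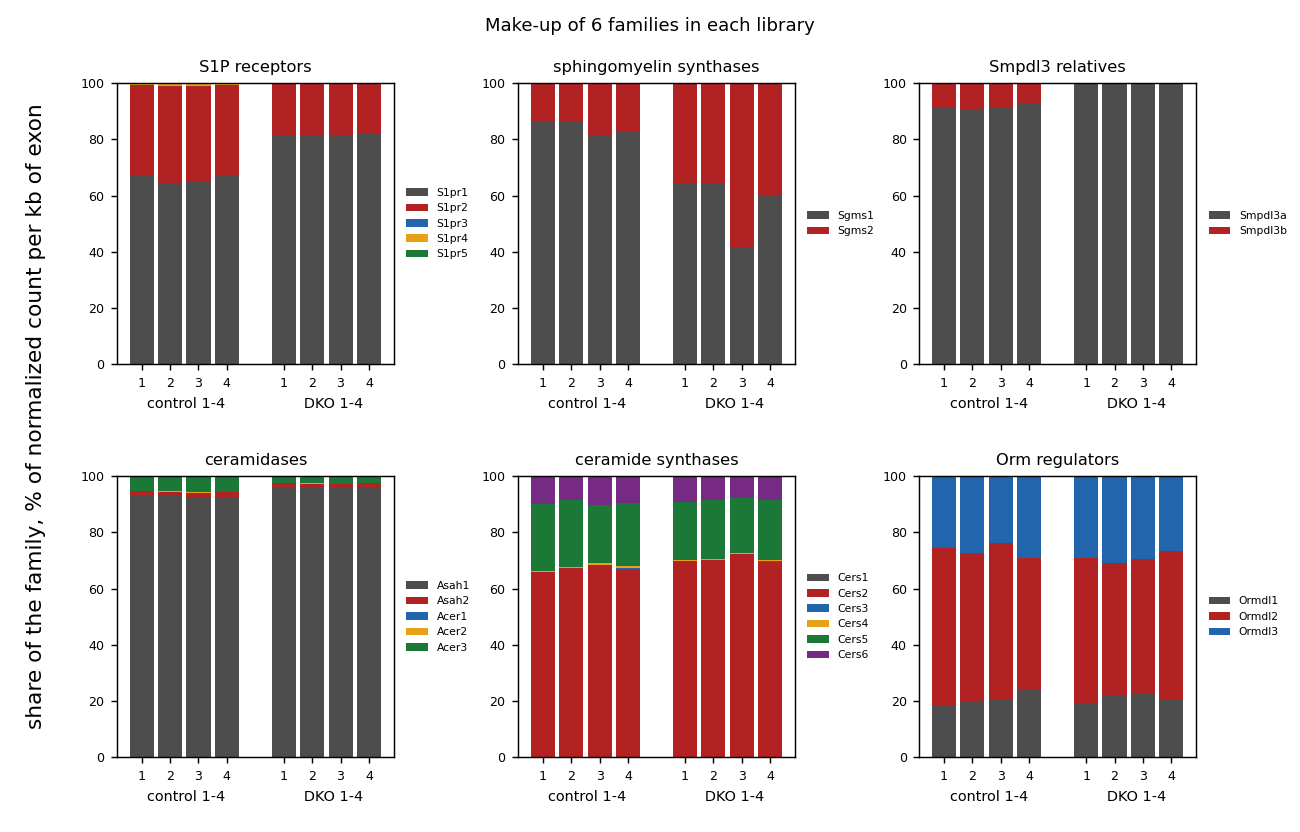
Share of each gene in its family, in percent of the normalized count per kb of exon, for each library of 6 sphingolipid gene families. S1pr1 takes a larger part of the receptors in all 4 DKO libraries, Sgms1 a smaller part of the sphingomyelin synthases, and Smpdl3b almost none of the Smpdl3 pair.

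Of 7 motifs searched in the promoters, the cAMP response element (TGACGTCA) was singled out after the counts were seen. It was present in 2.03% of all 27025 genes with an entry and in 3 of the 28 sphingolipid genes, Sphk2, S1pr2 and Ormdl3. All 3 were among the 9 genes called higher, and the call of Ormdl3 was lost in 9 of 19 other settings. Their promoters are shown because they share this word. Sphk2 has another promoter entry, at chr7:45715158-45715457, which does not hold it. All are on the minus strand of GRCm38.p6, from RefSeq, and capitals mark the element. Positions count from 1 at the 5′ end of the window. It lies at bases 254 to 261 of chr7:45717953-45718252 for Sphk2, 70 to 77 of chr9:20976744-20977043 for S1pr2, and 223 to 230 of chr11:98587196-98587495 for Ormdl3.
Sphk2: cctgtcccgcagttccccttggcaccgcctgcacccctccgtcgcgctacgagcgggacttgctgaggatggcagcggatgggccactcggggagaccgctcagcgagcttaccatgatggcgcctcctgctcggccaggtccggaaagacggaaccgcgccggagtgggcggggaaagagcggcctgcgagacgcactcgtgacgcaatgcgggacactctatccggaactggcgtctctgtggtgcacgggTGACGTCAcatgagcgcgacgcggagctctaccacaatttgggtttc
S1pr2: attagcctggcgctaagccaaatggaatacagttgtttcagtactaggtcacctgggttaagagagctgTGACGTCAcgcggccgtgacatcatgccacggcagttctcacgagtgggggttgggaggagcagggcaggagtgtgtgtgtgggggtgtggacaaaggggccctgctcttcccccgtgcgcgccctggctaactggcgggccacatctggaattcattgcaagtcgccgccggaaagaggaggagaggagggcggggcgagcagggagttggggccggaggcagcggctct
Ormdl3: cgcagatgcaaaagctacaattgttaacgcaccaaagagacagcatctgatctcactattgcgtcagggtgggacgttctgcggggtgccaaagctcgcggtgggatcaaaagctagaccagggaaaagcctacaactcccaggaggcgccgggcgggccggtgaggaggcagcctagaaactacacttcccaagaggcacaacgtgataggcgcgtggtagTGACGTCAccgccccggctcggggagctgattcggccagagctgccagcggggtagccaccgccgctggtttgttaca
Of the other 6 genes called higher, Cerk, Sgms2 and Sgpl1 had an entry, and their windows do not hold these letters. The CLEAR core of lysosomal genes (TCACGTGA), which contains the E-box letters, was found in 0 of the 28, against 1.12% of all genes. At so low a share, a count of 0 in 28 genes cannot show a lack of the element. Asah1 and Smpdl3a, whose products are lysosomal, had no entry to search. Matches are a description of these windows and no evidence of a factor's binding.

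Glycosphingolipid synthesis adds sugars to ceramide step by step. Of its 3 listed genes, 2 fell and 1 rose. St3gal5 (chr6:72097592-72154571, plus strand), which adds sialic acid to lactosylceramide to make the simplest ganglioside, had 8647, 8697, 8759 and 8458 in the controls and 5203, 5282, 5301 and 5190.2 in the DKO libraries. Replicates were tight and the groups far apart, with a DKO mean at 60.7% of the control mean, a log2 difference of -0.72 ± 0.05 (SE) and limma adjusted p = 2.91e-07. Ugcg, which adds glucose to ceramide, had 1041, 957, 1088 and 1002 in the controls and 923, 899, 757 and 777 in the DKO libraries. The groups were separate by a narrow gap, with a log2 difference of -0.29 ± 0.09 (SE) and limma adjusted p = 0.0177, and the call was lost without DKO library 3 (0.0539), DKO library 4 (0.0529) or control library 3 (0.0578). B4galt6, a lactosylceramide synthase, had 7170.4, 6965, 6911 and 7890.2 in the controls and 8129.8, 8093, 7840.5 and 8043 in the DKO libraries. Control library 4 lay inside the DKO range, and the log2 difference was 0.15 ± 0.06 (SE) with limma adjusted p = 0.0497, which missed the threshold in 15 of 19 other settings.

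Another list held 48 further genes of the same pathways, of which 31 were tested, 12 rose, 5 fell and 14 did not pass. That is 54.8% called against the background of 46.6%, with a median log2 difference of 0.11. Of the 10 genes reported here for glycosphingolipid breakdown, not all of them lysosomal, 7 rose and 1, Neu3, fell. Over all tested genes 22.9% were called higher and 23.8% lower. Gla, which removes galactose from globosides, went from 2784 ± 82.8 to 6146 ± 125 (SD, n = 4), a log2 difference of 1.14 with limma adjusted p = 9.91e-09. Psap, the precursor of the saposins that present lipids to these enzymes, went from 76752 ± 2169 to 135054 ± 5025, a log2 difference of 0.81 with limma adjusted p = 2.12e-07. Among genes of synthesis, B3galnt1 went from 945 ± 35.7 to 1972 ± 41.2 and rose with a log2 difference of 1.06 and limma adjusted p = 7.36e-08. B4galnt1, which extends simple gangliosides downstream of St3gal5, fell from 915 ± 54.3 to 653 ± 40.4, a log2 difference of -0.49 with limma adjusted p = 0.000443. Sptssa, the small subunit that activates serine palmitoyltransferase and named here after its value was seen, rose from 3224 ± 208 to 4982 ± 191, a log2 difference of 0.63 with limma adjusted p = 6.78e-06, while the large subunits differed by at most 0.16 on that scale. Naaa, a lysosomal amidase related to acid ceramidase, fell from 362 ± 55.8 to 89.8 ± 10.8, a log2 difference of -1.99 with limma adjusted p = 7.83e-07. Plpp1, a lipid phosphatase that can act on S1P, fell from 29.7 ± 14.3 to 4.71 ± 4.51, a log2 difference of -2.65 with limma adjusted p = 0.00393 at low counts. Cers1, Sptlc3, Sptssb, Fa2h, A4galt and Ugt8a were at 0 in all 8 libraries.

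**Figure D4:**
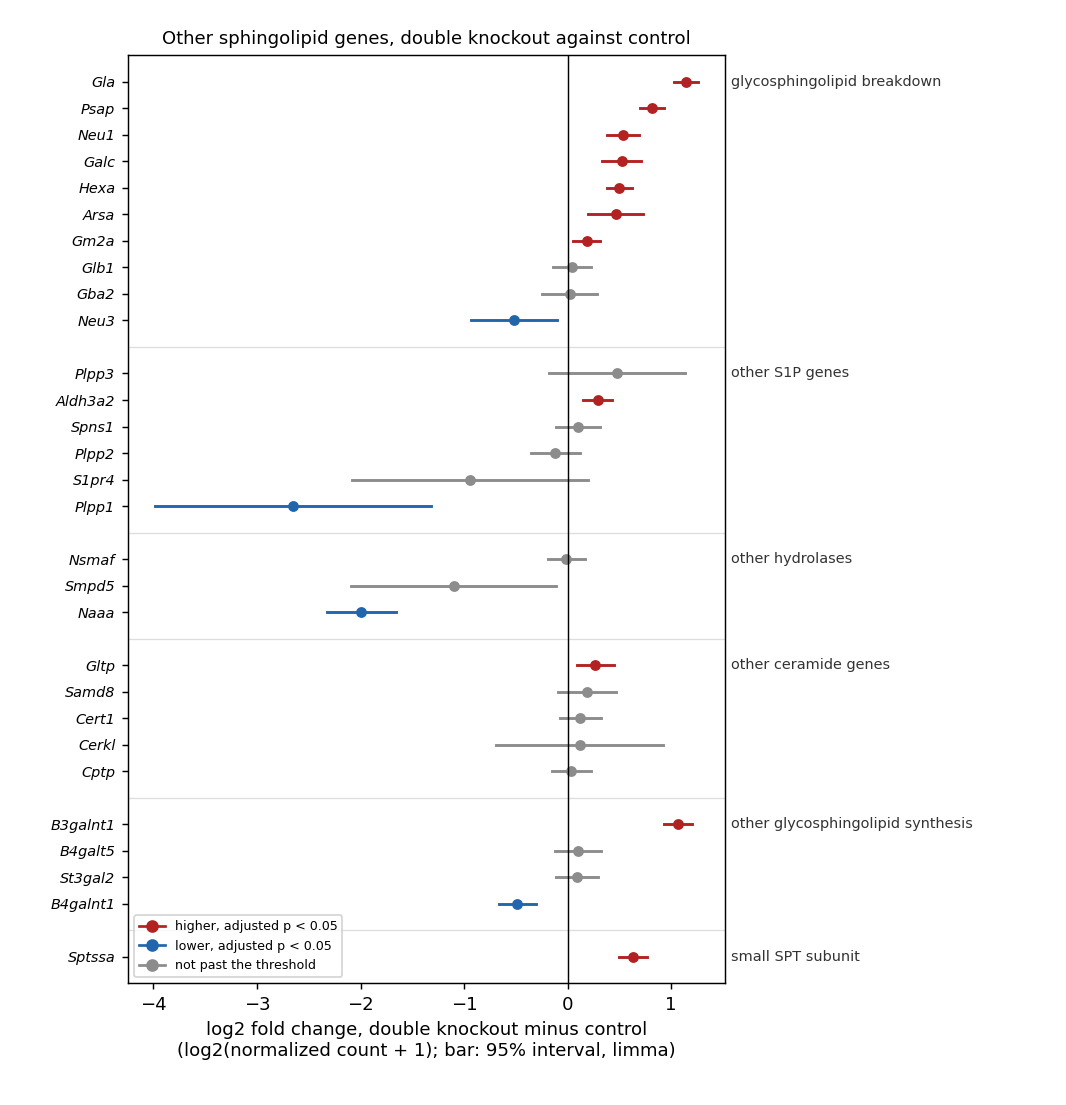
Log2 fold change of 29 tested further sphingolipid genes, DKO minus control, on the log2(normalized count + 1) scale, grouped by role. Points are limma estimates over 4 libraries per group and bars 95% intervals. In the top block, glycosphingolipid breakdown, 7 of the 10 genes drawn lie to the right with adjusted p under the threshold and Neu3 to the left. Over all tested genes 22.9% were called higher and 23.8% lower.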

How the data were processed

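Polyadenylated RNA from 4 control and 4 DKO libraries of bone marrow-derived macrophages was sequenced as read pairs after a Kapa mRNA preparation, per the labels' protocols. Salmon 1.4.0 and DESeq2 are the tools, and mm10 the build, that the authors used per the submitters' processing notes. Annotation release and strand setting: not given in the sources used here, so genes sharing exon bases on opposite strands are uncertain. The deposited values are a signal, that is normalized counts, for 34432 genes. Each equals reads over the size factor of its library (0.901 to 1.04), and undoing this gave whole numbers for 100% of values within 0.01. Those reads gave the depth and the count models tried as alternatives.

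The filter kept 11675 genes that reached 10 in 4 or more libraries. Their log2(value + 1) entered limma 3.58.1 (R 4.3.3, trend and robust options, genotype as the only term, two-sided), Benjamini-Hochberg adjustment covered all 11675, and the threshold was 0.05. Fold changes on this scale understate the changes of low genes. Calls over all genes numbered 2671 higher and 2773 lower with limma. For the recovered reads they numbered 2593 and 2786 with the quasi-likelihood test of edgeR 4.0.16, and 2787 and 2891 with DESeq2 1.42.0. Further alternatives were the pseudocount, the filter, the limma options, quantile normalization, a replicate block, averaging DKO libraries 1 with 2 and 3 with 4 and leaving out each library. No libraries agreed within sampling noise. The test script was checked on simulated counts. Exon lengths and shared exon bases came from a GENCODE annotation of mm10 (33 of 33 genes matched), and promoters of 300 bases from RefSeq (28 of 33 matched). Smpd3, Smpdl3a, Asah1, S1pr1 and B4galt6 had no entry.

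The 33 genes, the further pathway list and the marker lists were chosen with earlier results of these data known, so their counts are descriptions. All 33 genes were named, with every library's value for those past the threshold and for Smpd2 and Asah1, and group values or intervals for the others. Of the further list, the genes with the 4 smallest adjusted p-values in each direction were named, apart from some that are not reported here.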

Additional observations from a re-analysis of the deposited data

Results flagged for a closer look

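In 66 groups of 4 libraries, 1 group per gene and genotype, 2 held a library whose gap to the rest was large against the range of its group. Chance flags about 1 in 20 such groups. For Sgms2, DKO library 3 had a normalized count of 185 against 81.6 to 94.5 in the other DKO libraries, and without it the call was lost. For S1pr1, DKO library 3 had 4027 against 4333 to 4357 in the other DKO libraries. The S1pr1 log2 difference was 1.43 with this library and 1.46 without it.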

How the results depend on the processing

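Of the 21 sphingolipid genes called, 16 passed under all 19 other settings, and no gene changed direction among those called. Over these settings 6 to 9 genes were called higher and 10 to 12 lower, and in the further list 10 to 14 and 4 to 5. The 5 calls that depended on a setting were Sptlc2, Ormdl3, Sgms2, Ugcg and B4galt6. Asah1 and Smpd2, not called, passed in 1 and 3 settings. With a replicate block 7 genes were called higher and 11 lower, and 10 and 4 in the further list. Same-numbered libraries showed no strong shared deviation, with correlations of their deviations of -0.05, 0.03, -0.04 and -0.04. The labels do not say what the replicate numbers mark, and weak correlations cannot decide whether the samples were paired. Quantile normalization moved the median of all genes from 0.01 to 0.05. Shares within families moved where the longest transcript replaced total exon length, most for the sphingomyelin synthases. Limits are 4 libraries per group of unknown independence and the low counts of Sphk1, Acer2 and Smpd3. Several genes share exon bases with other genes, most of all Ormdl2, Smpd2, Sphk2, Ormdl1 and Cers4. The groups also differed in cell division, neutrophil and monocyte transcripts.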
